A study of Bos taurus with 12 samples.

Results

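The miR-26, miR-29 and miR-148/miR-152 families were examined in extracellular vesicles (EVs) from the blood plasma of beef heifers. Members were selected by name and not by a cut on their values, but with earlier results of these data known. The members were bta-miR-26a, miR-26b, miR-29a, miR-29b, miR-29c, miR-148a, miR-148b and miR-152. They make up 8 of the 783 bovine miRNAs listed, of which 336 had a read in at least 1 of the 12 libraries. All 8 members had reads in every library.

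The animals were Charolais- and Limousin-cross heifers aged 21 to 32 months, all of which had first been synchronized with an intravaginal progesterone device, gonadotrophin-releasing hormone and prostaglandin. Each gave plasma on Day 7 of 2 estrous cycles, one without stimulation (U, unstimulated) and a later one (S, superstimulated) after repeated injections of follicle-stimulating hormone (FSH), prostaglandin and artificial insemination. Of the stimulated heifers, the study chose 3 high responders (H) and 3 low responders (L) from the extremes of the number of corpora lutea. This gave 4 groups of 3 libraries: UL and UH before stimulation, and SL and SH after it. H and L describe the later response, so UH and UL heifers had been synchronized but not yet superstimulated when sampled, while SH and SL heifers had received the same superstimulation. Heifers were the replicates. A shared number, as in UH1 and SH1, was taken to mark the same heifer.

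A miRNA guides the silencing complex to messenger RNAs that pair with its seed, the bases near its 5′ end, and miRNAs with a common seed form a family with overlapping targets. The miR-26 family is known for restraining proliferation, in part through the histone methyltransferase EZH2. The miR-29 family is known for repressing collagens and other matrix genes and the de novo DNA methyltransferases DNMT3A and DNMT3B, and the miR-148/miR-152 family for repressing DNMT1. Plasma EVs come from many cell types, with platelets and other blood cells as large sources, so a level in plasma EVs does not name the cells that released it.

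The 8 mature sequences are shown because each family is defined by a heptamer that its members share, and because close members are told apart by few bases. They are printed as listed in the deposited table, 5′ to 3′ and with T for U, and capitals mark the shared heptamer.

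bta-miR-26a: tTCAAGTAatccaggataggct

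bta-miR-26b: tTCAAGTAattcaggataggtt

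bta-miR-29a: ctAGCACCAtctgaaatcggtta

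bta-miR-29b: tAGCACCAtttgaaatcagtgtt

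bta-miR-29c: tAGCACCAtttgaaatcggtta

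bta-miR-148a: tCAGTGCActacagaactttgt

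bta-miR-148b: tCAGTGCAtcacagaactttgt

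bta-miR-152: tCAGTGCAtgacagaacttggg

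In 7 of the 8 sequences the heptamer is the seed at bases 2 to 8. The listed bta-miR-29a carries 1 further base at its 5′ end, which places the heptamer of its family at bases 3 to 9, and bases 2 to 8 of the listed form read TAGCACC. With positions counted from the 5′ base, bta-miR-26a differed from bta-miR-26b by C11T and C21T. Counted after the extra base, bta-miR-29a differed from bta-miR-29c by C10T alone, and bta-miR-29c from bta-miR-29b by G18A, T21G and A22T. In the third family, bta-miR-148a differed from bta-miR-148b by C9T and T10C, and bta-miR-148b from bta-miR-152 by C10G, T20G and T22G. Differences between members lay outside the heptamer. Reads with a perfect match were annotated by the authors. How reads that end before a distinguishing base were assigned is not given in the sources used here. In the miR-29 family, bta-miR-29c and bta-miR-29b are identical up to their difference G18A near the 3′ end, so shortened reads of this pair could not be told apart.

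The RefSeq gene table of assembly ARS-UCD2.0 held 10 genes for the 8 members, and was used for names and neighbours only, since the reads were mapped to UMD3.1. The miR-26 genes MIR26A-1, MIR26A-2 and MIR26B lie within CTDSPL, CTDSP2 and CTDSP1, which encode small phosphatases of the RNA polymerase II tail. MIR29A neighbours MIR29B-1, and MIR29B-2 neighbours MIR29C, so that mature bta-miR-29b can come from both clusters. MIR148B lies within COPZ1 and MIR152 within COPZ2, which encode zeta subunits of the coatomer.

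Levels are given as normalized reads: the reads of a miRNA, calculated back from the deposited tags per 1000000, scaled with TMM factors to the mean depth of the 12 libraries. Reads of known miRNAs numbered 21466 to 77433 per library. SH2 was the smallest library and SH3 the largest, and 3 reads corresponded to 6.03 normalized reads in SH2 and 1.81 in SH3. Mature miRNAs have similar lengths, so levels of different members were compared without a length correction, although ligation and amplification can favour some sequences. Red cell markers (3 of 3 listed) summed to 982 to 2756 normalized reads in all libraries but SH3, which had 8362. In SH3, miR-486 alone made up 8318 of these. Platelet markers (2 of 2, miR-223 and miR-126-3p) summed to 2281 to 11040, with miR-126-3p the larger in every library. Leukocyte markers (4 of 4) summed to 1174 to 2638, and miR-144, a red cell marker, was at 0 in some libraries. Skeletal muscle markers (4 of 4) summed to 37.7 to 163 except in UL1, which had 1706, and liver markers (2 of 2) to 89.6 to 716. In a mixture such as plasma EVs, fewer vesicles from a cell type and fewer copies per vesicle cannot be told apart.

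The miR-26 family was the largest in 11 of 12 libraries, all but SH1. Of all known miRNA reads, miR-26 took 1.56 ± 0.277% (SD, n = 12 libraries), miR-148/miR-152 took 0.618 ± 0.386% and miR-29 took 0.430 ± 0.119%. The 8 members together took 2.61 ± 0.454%, between 1.86% in SH3 and 3.48% in SH1. The exact 95% binomial intervals given for shares of single libraries cover counting error only. Ordered by mean normalized reads among all miRNAs, bta-miR-26a was the 19th, bta-miR-26b the 26th, bta-miR-148a the 27th and bta-miR-29a the 36th. The remaining members had ranks of 77 (bta-miR-29c), 83 (bta-miR-148b), 94 (bta-miR-29b) and 96 (bta-miR-152).

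**Figure D1:**
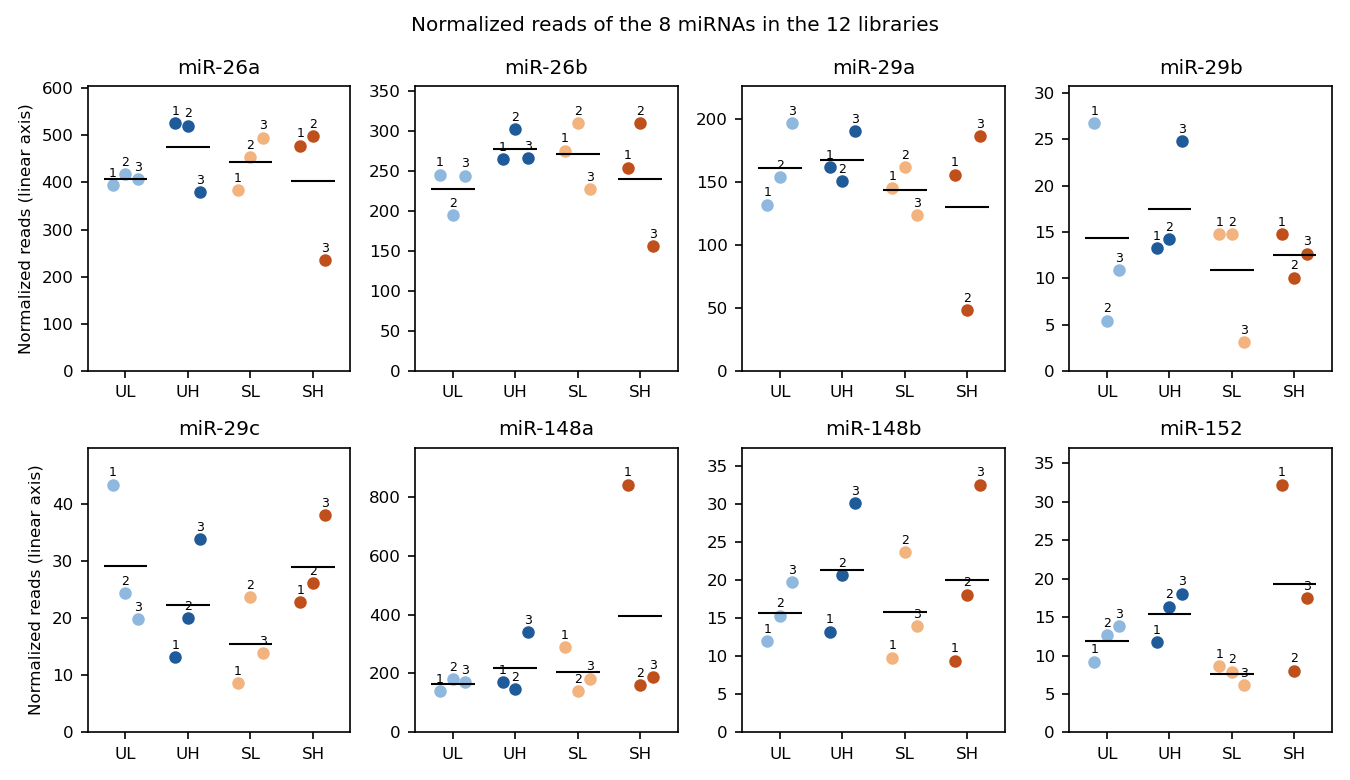
Normalized reads of each of the 8 members in each of the 12 libraries, by group, with a bar at the group mean. bta-miR-26a lies above the other members in every library but SH1, where bta-miR-148a at 841 is the highest point of all.

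The miR-26 family was on average the most abundant, and its members varied least. bta-miR-26a had 394, 418 and 407 normalized reads in UL1, UL2 and UL3, 526, 520 and 379 in UH, 383, 454 and 495 in SL, with 478, 498 and 236 in SH. Group means were 406 ± 12.3 (SD, n = 3) in UL, 475 ± 83.1 in UH, 444 ± 56.4 in SL, with 404 ± 146 in SH. All 4 groups overlapped, and SH3 was the only library below 379.

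bta-miR-26b had 245, 194 and 244 normalized reads in UL, 264, 302 and 265 in UH, 275, 309 and 227 in SL, with 254, 309 and 156 in SH. Its means were 228 ± 29.1, 277 ± 21.3, 271 ± 41.3 and 240 ± 77.7 (SD, n = 3). The 3 UH libraries lay above the 3 UL libraries, and SH3 was again the lowest.

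The balance of the pair was steady. bta-miR-26a made up 62.9 ± 3.58% of the family's reads (SD, n = 12), from 58.2% in SL1 (exact 95% interval 53.9 to 62.4) to 68.5% in SL3 (64.1 to 72.7). Group means of this share lay between 62.1 and 64.1%, closer to each other than the libraries within a group. In SH3 the family took 0.839% of known miRNA reads (0.776 to 0.906), the lowest share of the 12, and in SH2 1.87% (1.70 to 2.06), the highest. SH3 was also the library with the highest red cell marker sum, in which miR-486 made up 8318 of 8362 normalized reads. By contrast, miR-451 in SH3 was 43.4, below the 45.2 of UL1. The ratio of miR-451 to miR-23a, the study's measure of haemolysis, was 0.4645 in SH3, below the 0.639 of SH1. The part of the marker sum in the low miR-26 share of SH3 was not tested.

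The study used miR-26 as a reference in RT-qPCR of an independent group of heifers. It had found miR-26 among its most stable miRNAs with NormFinder, which makes the spread in these libraries of interest. Spread in sequencing reads is a different measure, from other heifers. The SD of log2(normalized reads + 1) over the 12 libraries was 0.287 for bta-miR-26b and 0.317 for bta-miR-26a. Among 107 miRNAs with a mean of at least 10 normalized reads these were the 7th and 10th smallest, against a median of 0.571. Of the 20 miRNAs nearest in abundance, 1 had a smaller SD than bta-miR-26b and 3 had a smaller SD than bta-miR-26a. Without SH3, the SDs were 0.202 and 0.180, the 4th and 2nd smallest of 106. Under other scalings the rank of bta-miR-26a lay between 2 and 17 and that of bta-miR-26b between 5 and 11. The smallest SDs overall belonged to miR-30c at 0.183, let-7d at 0.223 and let-7a-5p at 0.247.

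**Figure D2:**
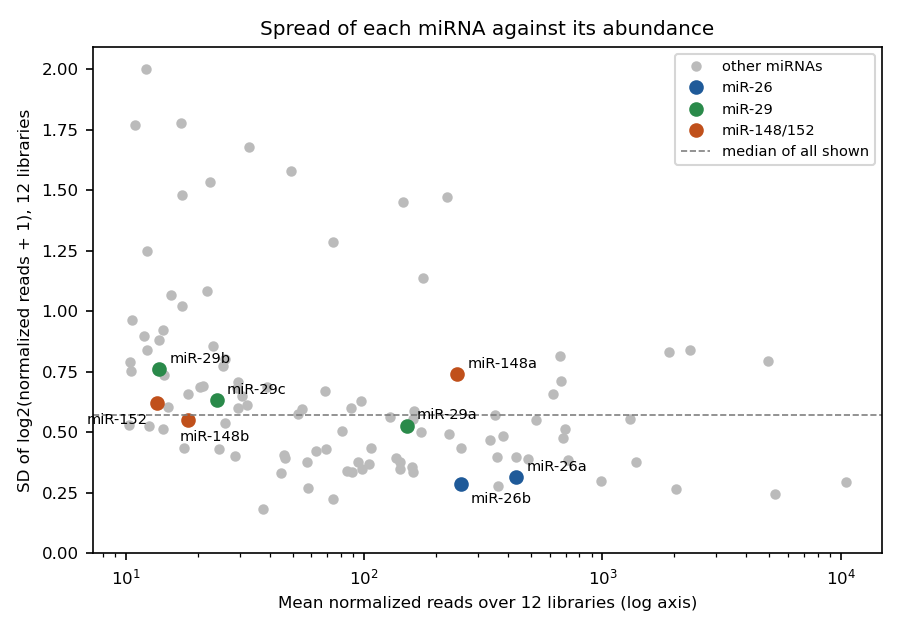
SD of log2(normalized reads + 1) over 12 libraries against mean normalized reads (log axis) for the 107 miRNAs with a mean of at least 10, with members labelled. Both miR-26 members lie near the lower edge at 0.287 and 0.317, and bta-miR-148a at 0.741 lies above most miRNAs of its abundance.

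By the smallest root mean square difference of centred log2 levels over the 12 libraries, the profile most like that of bta-miR-26a was let-7a-5p at 0.194. It was followed by miR-3432 at 0.221 and miR-10a at 0.232, where the median of 99 candidates was 0.625. As a description, let-7a-5p was lowest in SH3 at 3752 normalized reads and highest in UH2 at 6861. All miRNAs of a library share its depth and scaling, so similar profiles are partly a matter of the shared library.

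In the miR-29 family, bta-miR-29a exceeded bta-miR-29c and bta-miR-29b in all 12 libraries. It had 132, 154 and 197 normalized reads in UL, 162, 151 and 190 in UH, 145, 162 and 124 in SL, with 156, 48.2 and 186 in SH. Group means were 161 ± 33.0, 168 ± 20.4, 143 ± 19.0 and 130 ± 72.5 (SD, n = 3), and the 4 groups overlapped. The library SH2, with 24 reads, stood apart from the other 11.

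The share of bta-miR-29a in known miRNA reads was 0.112% in SH2 (0.0716 to 0.166). Its SD on the log2 scale was 0.528, the 46th smallest of 107, and 0.210 without SH2, the 3rd smallest. SH2 thus set the spread of bta-miR-29a. The profiles most like it were miR-2284x at 0.337, miR-16a at 0.341 and miR-140 at 0.404, against a median of 0.696 over 99 candidates. All 3 had their lowest level in SH2, at 26.1 normalized reads for miR-2284x, 179 for miR-16a and 76.4 for miR-140.

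bta-miR-29c had 43.3, 24.4 and 19.8 normalized reads in UL, 13.2, 19.9 and 33.8 in UH, 8.60, 23.6 and 13.9 in SL, with 22.8, 26.1 and 38.0 in SH. These values rested on 7 to 63 reads. UL at 29.2 ± 12.5 and SH at 28.97 ± 7.95 had the highest means, UH followed at 22.3 ± 10.5, and SL was lowest at 15.4 ± 7.63 (SD, n = 3). SH2 and SH3 lay above all SL libraries, while SH1 lay below SL2.

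bta-miR-29b, which differs from bta-miR-29c only toward the 3′ end, had 26.7, 5.42 and 10.9 normalized reads in UL, 13.2, 14.2 and 24.8 in UH, 14.7, 14.8 and 3.09 in SL, with 14.8, 10.0 and 12.7 in SH. It rested on 2 to 33 reads. Its group means, from 10.9 ± 6.74 in SL to 17.4 ± 6.42 in UH, were closer than the libraries within UL, UH or SL.

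Within the family, bta-miR-29a made up 79.2 ± 9.25% of the reads (SD, n = 12), bta-miR-29c 13.4 ± 6.98% and bta-miR-29b 7.41 ± 3.32%. The bta-miR-29a share was lowest in SH2 at 57.1% (exact 95% interval 41.0 to 72.3) and next in UL1 at 65.3% (58.6 to 71.6), and highest in SL3 at 87.9%. bta-miR-29c was above bta-miR-29b in 10 libraries, equal in 1 and below in 1. The genes of bta-miR-29a and bta-miR-29b are neighbours, and the ratio of their mature reads ranged from 4.80 in SH2 to 40 in SL3 with a median of 10.8.

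The table also lists bta-miR-29d-3p, the only other entry with the seed of a member. It is shown because it differs from bta-miR-29c by G19A alone.

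bta-miR-29d-3p: tAGCACCAtttgaaatcgatta

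It had 0 or 1 read per library and 6 reads in all, against 7 to 63 per library for bta-miR-29c. The other arm, bta-miR-29d-5p, had 1 to 17 reads and was present in all 12 libraries. bta-miR-26c, whose sequence is the reverse complement of bta-miR-26a, and bta-miR-29e had 0 reads in all 12 libraries, which allows up to 6.03 normalized reads in the smallest.

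As summed reads, the miR-148/miR-152 family had the largest differences between libraries, and those of bta-miR-148a came mainly from 1 library. Among single members, the SD on the log2 scale was largest for bta-miR-29b at 0.761, against 0.741 for bta-miR-148a. bta-miR-148a had 141, 182 and 170 normalized reads in UL, 170, 146 and 341 in UH, 290, 141 and 182 in SL, with 841, 161 and 189 in SH. Its means were 164 ± 20.9, 219 ± 106, 204 ± 76.9 and 397 ± 385 (SD, n = 3). All groups overlapped, and SH2 and SH3 lay within the range of UH and of SL.

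In SH1 bta-miR-148a took 1.62% of known miRNA reads (1.49 to 1.75) with 626 reads, and in SH2 0.373% (0.296 to 0.464) with 80 reads. Its SD over libraries was 0.741 with SH1 and 0.409 without it. The most similar profiles were let-7i at 0.265, miR-21-5p at 0.430 and let-7c at 0.543, where the median of 99 candidates was 0.948. let-7i reached 1665 normalized reads in SH1 against 449 to 844 elsewhere, and let-7c 5986 in SH1 from a minimum of 926. In sequencing reads, the ratio of miR-451 to miR-23a, a pair by which the study checked haemolysis, was also highest in SH1. It was 0.639 against 0.0854 to 0.5 in the other 11 libraries. That ratio stood for 23 reads of miR-451 and 36 of miR-23a. Normalized miR-451 in SH1 was 30.9, below that of UL1, UH3, SL2 and SH3. The red cell marker sum of SH1 was 1758, within the range of the other libraries. The part of the ratio in the level of bta-miR-148a was not tested.

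bta-miR-148b had 11.98, 15.4 and 19.8 normalized reads in UL, 13.2, 20.6 and 30.1 in UH, 9.82, 23.6 and 13.9 in SL, with 9.40, 18.1 and 32.5 in SH. Unlike bta-miR-148a it was lowest in SH1, with 7 reads. Its group means, from 15.7 ± 3.90 in UL to 21.3 ± 8.45 in UH (SD, n = 3), differed by less than the spread within UH, SL or SH.

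bta-miR-152 had 9.22, 12.6 and 13.8 normalized reads in UL, 11.7, 16.4 and 18.0 in UH, 8.60, 7.88 and 6.18 in SL, with 32.2, 8.04 and 17.5 in SH. The 3 SL libraries were below every UL and UH library, and SH2 lay between SL1 and SL2. Group means were 11.9 ± 2.40, 15.4 ± 3.26, 7.55 ± 1.24 and 19.2 ± 12.2 (SD, n = 3), resting on 4 to 29 reads per library. In SL3 and SH2 the value stood for 4 reads.

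bta-miR-148a made up 86.5 ± 5.06% of the family's reads (SD, n = 12), bta-miR-148b 8.20 ± 3.76% and bta-miR-152 5.32 ± 1.83%. In SH1 the share of bta-miR-148a was 95.3% (exact 95% interval 93.4 to 96.8) and that of bta-miR-148b 1.07% (0.429 to 2.18). bta-miR-148b exceeded bta-miR-152 in 11 of 12 libraries, the exception being SH1.

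**Figure D3:**
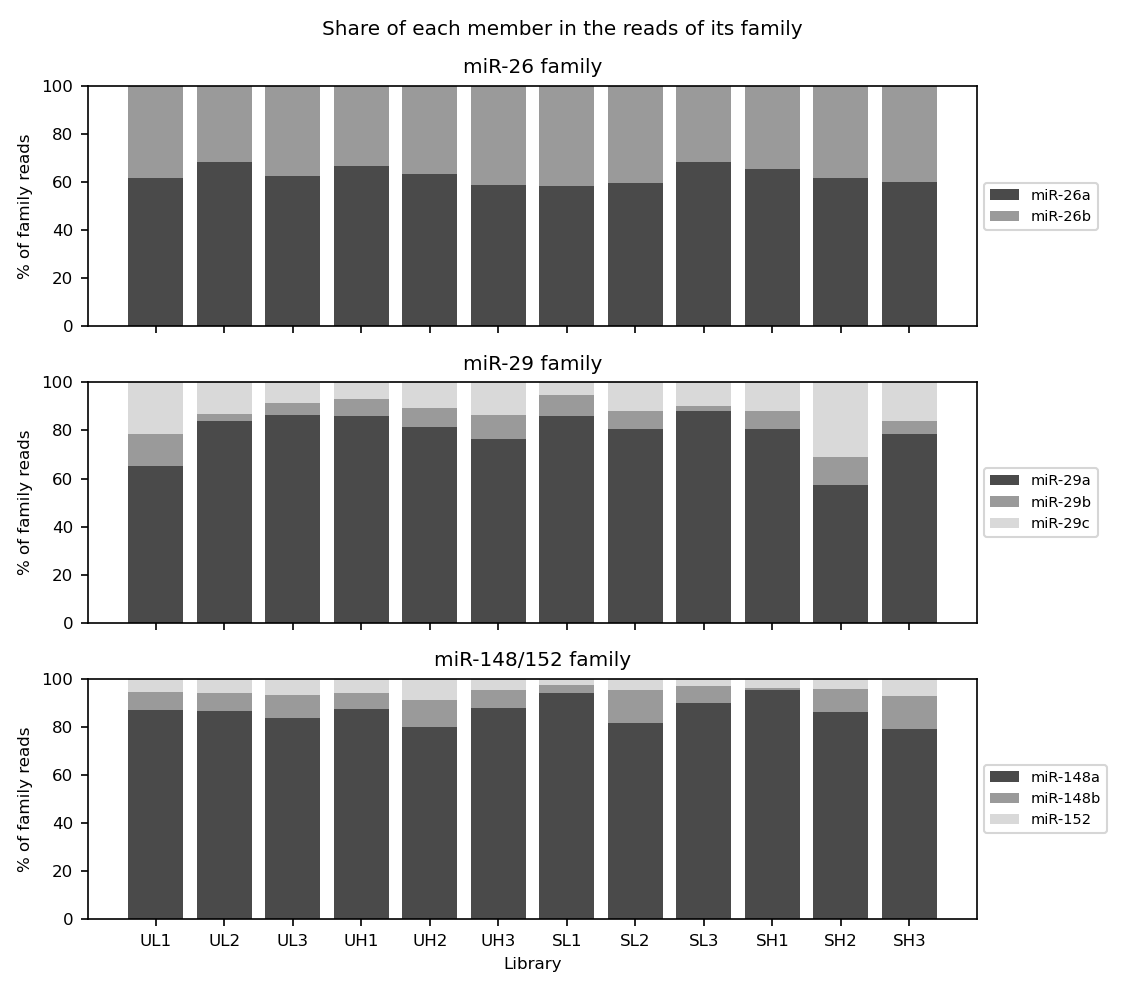
Share of each member in the reads of its family in the 12 libraries, as stacked bars for each family. The share of bta-miR-29a is lowest in SH2 at 57.1%, and that of bta-miR-148a is highest in SH1 at 95.3%.

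To ask whether members differed with the ovarian response or with superstimulation, limma was fitted across all detected miRNAs on log2(normalized reads + 1). Calls needed a difference of 1 or more on this scale, in either direction, and an unadjusted P no greater than 0.05, the thresholds of the study. The added 1 makes differences of low members smaller than they are on a linear scale. The main fits between cycles, and that of the interaction, had no term for the heifer. Libraries sharing a number were thus treated as independent, and the intervals given for these comparisons are unpaired. All 8 members were tested in every comparison, and 0 of 8 were called in any of the 7. By limma, 0 members also had an unadjusted P of at most 0.05, and over all miRNAs no Benjamini-Hochberg adjusted P was below 0.05 in any comparison.

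For UH vs. UL, the difference before stimulation, 2.64% of 227 miRNAs were called and 0 of 8 members. The members' differences were positive for 7 and negative for bta-miR-29c, with a median of 0.30 against 0.04 over all miRNAs tested. bta-miR-26b was 0.29 ± 0.26 (SE) higher (95% interval -0.26 to 0.84), with limma's adjusted P of 0.929. Its 3 UH libraries lay above its 3 UL libraries, as 7.49% of all miRNAs did in either direction. bta-miR-26a differed by 0.21 ± 0.26 (-0.34 to 0.76) and bta-miR-148a by 0.32 ± 0.32 (-0.36 to 0.997).

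For SH vs. SL, after stimulation, 5.47% of 201 miRNAs were called and 0 of 8 members. No member had groups without overlap, against 8.96% of all miRNAs. The 2 largest differences were those of bta-miR-152 at 1.06 ± 0.66 (-0.41 to 2.53) and bta-miR-29c at 0.95 ± 0.55 (-0.26 to 2.15), each with limma's adjusted P of 0.666. bta-miR-152 passed the fold threshold but not that of P, which was 0.139. Without SH2 its difference was 1.54 with an unadjusted P of 0.0335 (limma; adjusted P 0.245), so this library decided the call. Leaving out SH2 also raised the calls over all miRNAs from 11 to 34. bta-miR-148a differed by 0.59 ± 0.59 (-0.71 to 1.89), and by -0.17 without SH1. bta-miR-26a and bta-miR-26b differed by -0.20 ± 0.38 and -0.22 ± 0.36, both positive without SH3 at 0.14 and 0.06. bta-miR-29a differed by -0.34 ± 0.49, and by 0.26 without SH2.

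Between cycles in H heifers, SH vs. UH, 5.66% of 212 miRNAs were called and 0 of 8 members, whose differences ran from -0.57 ± 0.49 for bta-miR-29a to 0.53 ± 0.55 for bta-miR-148a. Those extremes were 0.03 for bta-miR-29a without SH2 and -0.23 for bta-miR-148a without SH1. No member had groups without overlap, against 7.55% of all miRNAs. The median over members was -0.22, against -0.14 over all miRNAs tested.

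In L heifers, SL vs. UL, 2.34% of 214 miRNAs were called and 0 of 8 members. bta-miR-29c had the largest difference, -0.91 ± 0.48 (-1.97 to 0.15), with an unadjusted P of 0.0854 and an adjusted P of 0.702 in limma. Without SL2 it was -1.26 with an unadjusted P of 0.0278 (adjusted P 0.411), which meets the threshold for a call, and the calls over all miRNAs went from 5 to 15. bta-miR-152 differed by -0.59 ± 0.51 (-1.72 to 0.55; limma's adjusted P 0.754). Its 3 SL libraries lay below its 3 UL libraries, where 7.94% of all miRNAs did not overlap. bta-miR-26a was the most tightly bounded member at 0.12 ± 0.20 (-0.31 to 0.55).

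Over both response groups, S vs. U, 4.62% of 238 miRNAs were called and 0 of 8 members. The miR-26 members differed by -0.09 ± 0.23 (-0.56 to 0.39) and -0.01 ± 0.22 (-0.47 to 0.45), so that these intervals exclude an average change of 1 on the log2 scale. That bound holds for bta-miR-29a, miR-29c and miR-148b too, but only narrowly for bta-miR-29c, whose lower limit was -0.9961. The intervals of bta-miR-29b, miR-148a and miR-152 reach past 1. All of these are unpaired, and intervals from a paired fit are not given. bta-miR-148a had the only positive difference, 0.39 ± 0.35 (-0.35 to 1.13).

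For H vs. L as means of the 2 libraries of a heifer, 2.52% of 238 miRNAs were called and 0 of 8 members. The largest difference was that of bta-miR-152 at 0.70 ± 0.43 (-0.23 to 1.63; limma's adjusted P 0.735). All 3 H heifers had a higher mean than the 3 L heifers, and 9.24% of all miRNAs did not overlap. bta-miR-26a and bta-miR-26b differed by 0.00 ± 0.28 (-0.59 to 0.60) and 0.03 ± 0.26 (-0.51 to 0.58). bta-miR-148a differed by 0.45 ± 0.31 (-0.22 to 1.13).

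**Figure D4:**
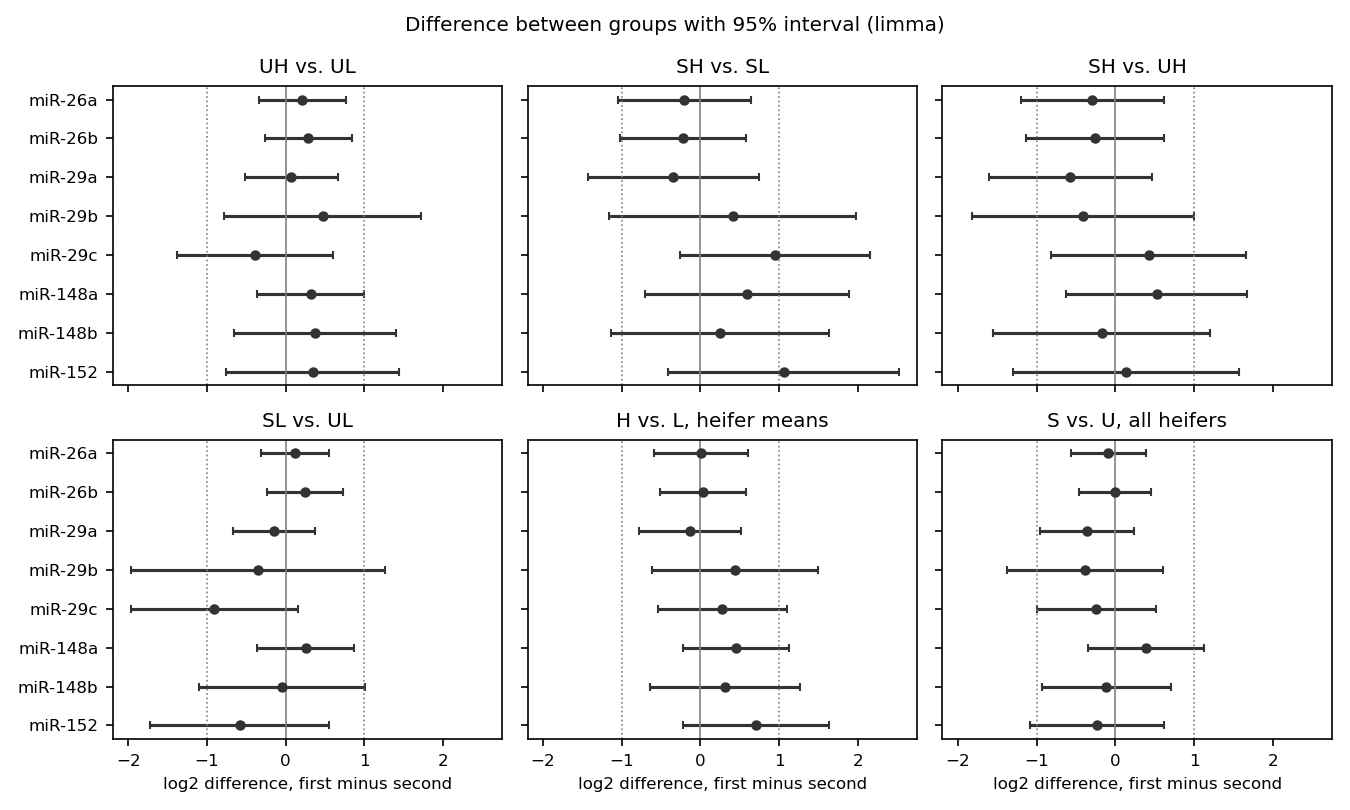
Log2 differences of the 8 members in the comparisons other than the interaction, with 95% intervals from limma. Every interval spans 0, the narrowest belong to the miR-26 members, and the furthest point is bta-miR-152 in SH vs. SL at 1.06.

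An interaction term asked whether H and L heifers differed in their change between cycles. In it 5.04% of 238 miRNAs were called and 0 of 8 members. bta-miR-29c had the largest value, 1.34 ± 0.72 (-0.17 to 2.85), with an unadjusted P of 0.0795 and an adjusted P of 0.847 in limma. It met the threshold for a call without UH3, at 1.67, and without SL2, at 1.68. Its level was higher in the S cycle in 3 of 3 H heifers, by 0.75, 0.37 and 0.16, and lower in 3 of 3 L heifers, with differences of -2.21, -0.04 and -0.48. The L1 heifer, at 43.3 normalized reads before and 8.60 after, had the largest difference of the 6. Between cycles bta-miR-26a differed by -0.14, -0.06 and -0.68 in H1, H2 and H3, all below the values of -0.04, 0.12 and 0.28 in L1, L2 and L3. Its interaction was -0.41 ± 0.46 (-1.37 to 0.54). Changes of H and L heifers did not overlap for 12.2% of all miRNAs and for these 2 members.

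bta-miR-148a differed between cycles by 2.30, 0.14 and -0.85 in the 3 H heifers and by 1.03, -0.36 and 0.10 in the 3 L heifers, and bta-miR-152 by 1.38, -0.94 and -0.04 and by -0.09, -0.62 and -1.05. Both had their largest difference in heifer H1. Values of opposite sign occurred within the H group for both, and the S level of bta-miR-148a was higher in 4 of 6 heifers and that of bta-miR-152 in 1 of 6.

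**Figure D5:**
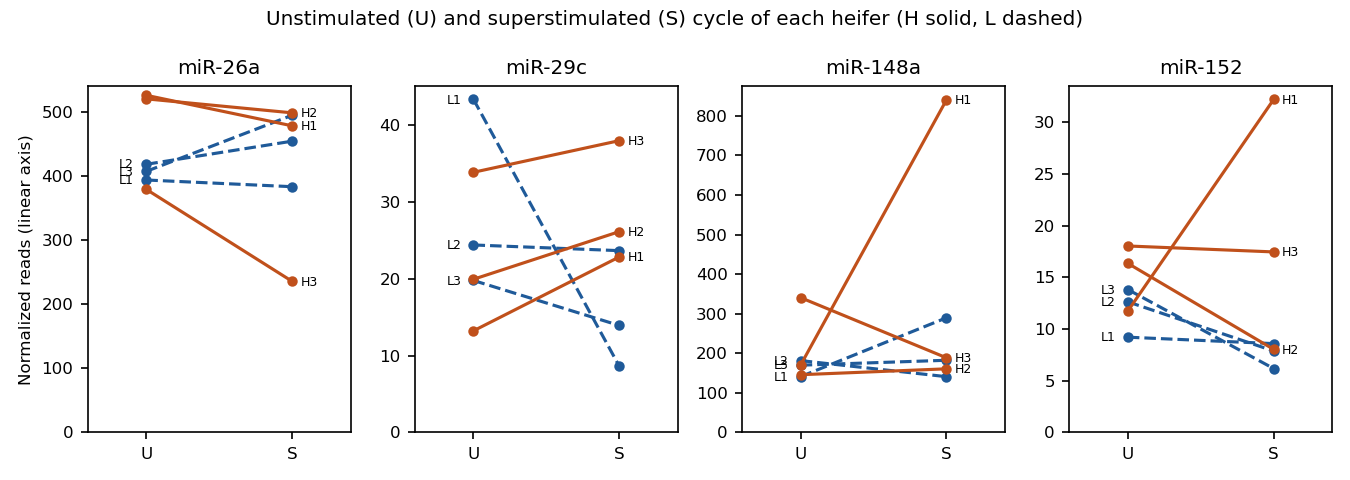
Normalized reads (linear axes) of bta-miR-26a, miR-29c, miR-148a and miR-152 in the U and S cycle of each heifer, with lines joining libraries of the same number. bta-miR-29c is higher after stimulation in the 3 H heifers and lower in the 3 L heifers, though almost level in L2. The steep lines of bta-miR-148a and bta-miR-152 are those of heifer H1.

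Of 7 other miRNAs known to target DNA or histone methyltransferases, 5 or 6 were tested in each comparison and 0 were called in any. Their median difference ran from -0.57 in SL vs. UL to 0.60 in the interaction. miR-342 held most of their reads. All 5 miRNAs known to act on the matrix or on TGF-beta signalling, miR-21-5p among them, were tested and 0 were called. Their medians ran from -0.30 in the interaction to 0.21 in SL vs. UL. Over all miRNAs tested, 2.34% (SL vs. UL) to 5.66% (SH vs. UH) were called, so 0 calls does not set either short list apart.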

How the data were processed

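Small RNA libraries of plasma EV RNA were made by the authors with unique molecular identifiers, trimmed with Cutadapt, collapsed, and mapped to UMD3.1 with Bowtie2 2.2.2. Perfect matches were annotated against miRBase release 21. The deposited values are a score: tags per 1000000 mapped reads from which the authors dropped the decimals. Reads were calculated back from the step of each library, and the number of columns left unused was 0. Because the deposited values are not counts, limma 3.58.1 (R 4.3.3, lmFit and eBayes with a trend) was fitted, two-sided, to log2(TMM-normalized reads + 1). Tested were miRNAs found, with 1 read or more, in 2 or more libraries of a compared group, with Benjamini-Hochberg adjustment over all of them. Fits were tested on simulated data. Tables and figures were made with Python 3.11.15.

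Members and lists were chosen with earlier results of these data known. All 8 members, entries sharing their seeds and the 3 most similar profiles of bta-miR-26a, miR-29a and miR-148a were named. Replicate libraries differed by more than sampling noise. Depth was 21466 to 77433 known miRNA reads per library. UMI-collapsed reads count molecules, and intervals cover counting error only.

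Pairing by number rests on the same heifers having been sampled in both cycles. The labels do not say that a shared number marks the same heifer, and differences given per heifer depend on it. Deviations from group means over 238 miRNAs correlated at 0.05, 0.21 and 0.13 in H1, H2 and H3. In L1, L2 and L3 they correlated at 0.10, 0.06 and -0.05. Correlations this low do not establish the pairing. Alternatives were other scalings, filters, pseudocounts of 0.5 and 2, all 4 groups in the fit, the replicate block, and leaving out each library.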

Additional observations from a re-analysis of the deposited data

Results flagged for a closer look

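The change of bta-miR-29c between cycles went in opposite directions in the response groups. It was higher after superstimulation in all 3 H heifers and lower in all 3 L heifers, with an interaction of 1.34 ± 0.72 on the log2 scale (unadjusted P 0.0795, adjusted P 0.847 by limma, 3 heifers per group). In the L heifers the differences were -2.21 in L1, -0.04 in L2 and -0.48 in L3, so L2 hardly changed. Changes of H and L heifers did not overlap for 12.2% of all miRNAs. The interaction of bta-miR-29c was not called. Leaving out each library moved it between 1 and 1.68, and it met the threshold for a call without UH3 (1.67, unadjusted P 0.039 by limma) and without SL2 (1.68, unadjusted P 0.0403). Calls over all miRNAs were then 13 and 11, against 12 with all libraries. All libraries included, with the replicate block the P was 0.0774. The values rested on 7 to 63 reads per library.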

How the results depend on the processing

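Of 1015 alternative values of single members, 950 kept their direction and their side of the threshold, 61 reversed, 4 newly met the threshold for a call and 0 lost one. Differences near 0 are read as undetected at this depth, which leaves bta-miR-29b, miR-29c, miR-148b and miR-152 on 2 to 63 reads. The number of miRNAs called changed by over 1.5 times as follows, and the cause was not tested except that fewer miRNAs are tested under stricter filters. With a mean of at least 10 reads it was 1 in UH vs. UL, 5 in SH vs. SL, 6 in SH vs. UH, 0 in SL vs. UL, 4 in S vs. U, 1 in H vs. L and 4 in the interaction. With no filter on low reads it was 10 in UH vs. UL. Relative to all mapped reads it was 7 in SH vs. SL and 6 in S vs. U. With a pseudocount of 2 it was 3 in SL vs. UL, 4 in S vs. U and 2 in H vs. L. With all 4 groups in the fit it was 21 in SH vs. SL, 19 in SH vs. UH and 10 in SL vs. UL. With the replicate block, which pairs libraries by number, it was 3 in SL vs. UL, and the block changed the call of 0 members. In UH vs. UL and SH vs. SL that pairing joins different heifers, so there it is arbitrary. For bta-miR-152 in SL vs. UL, the filter at a mean of 10 reads gave no value.

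Of the members, bta-miR-29a reversed to -0.037 in UH vs. UL, bta-miR-26a to -0.126 and bta-miR-26b to -0.0939 in H vs. L with library totals without TMM. bta-miR-26b reversed to 0.0361 in S vs. U with median-of-ratios size factors, and bta-miR-29a to 0.0283 in H vs. L per 1000000 mapped reads.

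Leaving out each library gave 5 to 10 calls in UH vs. UL, 8 to 34 in SH vs. SL, 6 to 24 in SH vs. UH, 7 to 15 in SL vs. UL, 5 to 16 in S vs. U, 3 to 9 in H vs. L and 7 to 21 in the interaction. Counts moved by over 1.5 times without UL3 or UH2 in UH vs. UL (10 each), SH2 in SH vs. SL (34), UH2 or SH1 (6 each) or SH2 (24) in SH vs. UH, and UL1 (8), UL2 (11), UL3 (9), SL1 (8) or SL2 (15) in SL vs. UL. They also did without UL1 (5), UL3 (7) or UH1 (6) in S vs. U, SH3 (3) in H vs. L, and UL1 (7) or SH2 (21) in the interaction. Called members numbered 0 to 1 in SH vs. SL (bta-miR-152 without SH2), in SL vs. UL (bta-miR-29c without SL2) and in the interaction (bta-miR-29c at 1.67 without UH3 and 1.68 without SL2), and 0 elsewhere. Differences that reversed without a library had these ranges. In UH vs. UL, bta-miR-29a ran from -0.0591 to 0.228, bta-miR-29b from -0.0319 to 1.02 and bta-miR-148a from -0.0503 to 0.559. In SH vs. SL, bta-miR-26a ran from -0.395 to 0.144, miR-26b from -0.43 to 0.0621, miR-29a from -0.708 to 0.255, miR-29b from -0.239 to 0.734, miR-148a from -0.165 to 1.02 and miR-148b from -0.169 to 0.675. In SH vs. UH, bta-miR-26a ran from -0.484 to 0.0553, miR-26b from -0.473 to 0.0188, miR-29a from -0.933 to 0.0303, miR-148a from -0.226 to 0.963, miR-148b from -0.591 to 0.253 and miR-152 from -0.322 to 0.617. In SL vs. UL, bta-miR-29a ran from -0.284 to 0.00271, miR-29b from -0.852 to 0.296, miR-148a from -0.0262 to 0.492 and miR-148b from -0.368 to 0.225. In S vs. U, bta-miR-26a ran from -0.182 to 0.0877, miR-26b from -0.114 to 0.131, miR-148b from -0.32 to 0.102 and miR-152 from -0.454 to 0.0158. In H vs. L, bta-miR-26a ran from -0.112 to 0.116, miR-26b from -0.0926 to 0.162, miR-29a from -0.407 to 0.135 and miR-29c from -0.0907 to 0.645. In the interaction, bta-miR-29a ran from -0.781 to 0.182, miR-29b from -0.707 to 0.441, miR-148a from -0.484 to 0.706 and miR-148b from -0.542 to 0.303. A group left with 2 libraries was tested with the spread pooled by limma. The SD over libraries ran from 0.18 to 0.332 for bta-miR-26a, from 0.21 to 0.554 for bta-miR-29a and from 0.409 to 0.776 for bta-miR-148a.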
